A study of Prunus persica with 18 samples.

Results

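The 150 genes described here had the largest drop in transcript level by the last of 3 sampling times in peach buds, in the apical and in the basal part of the shoot alike. They were chosen on CPM values, the raw count of a gene divided by the column sum of its library and multiplied by 1000000, so that each library sums to the same total. A gene had to average at least 2 CPM in each of the 4 groups of the first and second sampling time, which 15791 of the 26873 genes in the table did. For each bud position the lower of the T1 and T3 means was divided by the T5 mean, with a T5 mean below 0.1 CPM set to 0.1, and the 150 genes with the largest smaller ratio of both positions were kept. A block of 7 consecutive identifiers, PRUPE_1G531100 to PRUPE_1G531700, was left out, of which 3 passed the level minimum. The levels at T1, T3 and T5 therefore chose the genes, and the drop at T5 is given below as a description, without a test.

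The buds came from untreated trees of Platinet 1, a flat nectarine, and were sampled at 3 times counted in days after full bloom (DAFB), with T1 at 45, T3 at 58 and T5 at 79 DAFB. Apical and basal buds were kept apart, which gave 6 groups of 3 biological replicates and 18 libraries, and none of the sequenced buds had received gibberellin. By the study's methods each replicate pooled the buds of several shoots, with the apical and basal buds cut from the same shoots. A value is therefore an average over many buds. The study cautions that early buds were tiny beside the tissues around them, which might have biased the profiles. It took a pathway analysis as a check on the sampling. Total counts per library ranged from 21114469 to 47286272.

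In peach, axillary buds form one after another in the leaf axils of the growing shoot, so that the basal buds of a shoot are older than those near its tip. During late spring and summer the meristem inside such a bud first adds leaf primordia and bud scales and can then pass from the vegetative to the reproductive state. Genes switched off over these weeks can belong to growth, organ formation, the repression of flowering or the tissues surrounding the meristem. Which of these the 150 genes belong to is not known here, because 0 of the identifiers in the count table could be matched to the 26412 genes of the RefSeq gene table for peach. The genes are therefore given by their PRUPE identifiers only, without names, roles or sequences. In these identifiers the digit after PRUPE_ is the chromosome and the last 6 digits are the locus number, except that 1 of the 150 carries no chromosome digit.

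One library stood furthest apart in the series, and a second to a lesser degree. A chi-square comparison of raw counts gave 133 and 139 per gene between T3 apical replicate 1 and its replicates. T5 apical replicate 1 gave 50.6 and 31.2 against its replicates, and the remaining pairs of replicates gave 4.53 to 20.3. Without T3 apical replicate 1, 144 of the 150 genes were chosen again by the rule, and the main counts below that it enters are also given without it. The spread of replicates, the shares along the order of the smaller ratio and the counts under other tests or limits are given only with it. The floral genes that the study names were checked as markers of the tissue. PpTFL1 and PpCEN, relatives of a repressor of flowering in Arabidopsis, and PpFT, a relative of its flowering signal, had 196 to 1248, 36 to 317 and 95 to 334 counts per library. PpAP1, a gene of floral meristem identity, had 6 to 37 counts and did not reach 2 CPM in any group.

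At T1 and T3 the 150 genes took up between 1.36% and 2.05% of all counts of a library, and at T5 between 0.175% and 0.282%. In apical buds the share was 1.99% ± 0.071 (T1), 1.79% ± 0.083 (T3) and 0.258% ± 0.040 (T5), as mean ± SD with n = 3. In basal buds it was 1.42% ± 0.054, 1.49% ± 0.066 and 0.208% ± 0.029 at the same times (SD, n = 3). The apical share was above the basal share at T1 and T3, with no overlap of the libraries, while at T5 the libraries of the positions overlapped. In bulk buds, fewer cells of a type and less RNA of a gene per cell cannot be told apart.

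**Figure D1:**
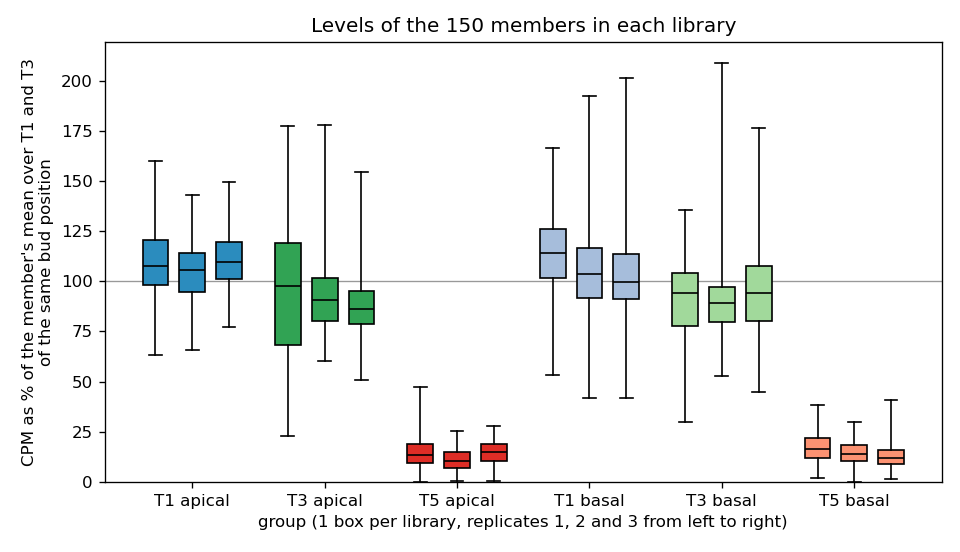
CPM of each of the 150 genes in each of the 18 libraries, as a percentage of the gene's mean over T1 and T3 in the same bud position. Boxes show the middle 50% with the median and whiskers reach the lowest and highest gene; the medians of the 12 libraries of T1 and T3 lay between 86.0% and 114%, those of the 6 libraries of T5 between 10.6% and 16.5%.

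The drop at T5 was seen in each library. The median gene stood at 13.6%, 10.6% and 15.0% of its T1 and T3 mean in the 3 apical libraries of T5 and at 16.5%, 13.9% and 11.8% in the 3 basal ones. Every T5 library was below every T1 and T3 library of its position in 150 of the 150 genes, in apical and in basal buds, a separation to which the choice of the genes leads. The fall was deep but not to silence. No gene had 3 or fewer counts in all 3 T5 libraries of either position, 14 had such a count in at least 1 T5 library, and 1 had a T5 library with 0 counts. The 6 T5 libraries together held a median of 521 counts per gene, and 42 for the lowest.

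The ratio of the lower of the T1 and T3 means to the T5 mean ranged from 4.07 to 242 in apical buds (median 6.33) and from 3.995 to 50.3 in basal buds (median 5.78). Over the 15791 genes that passed the level minimum, the median ratio was 0.972 in apical and 1.09 in basal buds. The smaller ratio of both positions was at least 5 in 82 of the genes, at least 10 in 10 and at least 20 in 5. The apical ratio was the larger one in 92 genes and the basal ratio in 58. In 14 genes the apical ratio was at least 2 times the basal one, and in 13 the basal ratio was at least 2 times the apical one. The limit between genes chosen and not chosen was narrow. The last chosen, PRUPE_1G559400 and PRUPE_1G221100, had smaller ratios of 4.01 and 3.995, and the next in order, PRUPE_7G100400 and PRUPE_3G121200, had 3.99 and 3.97.

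**Figure D2:**
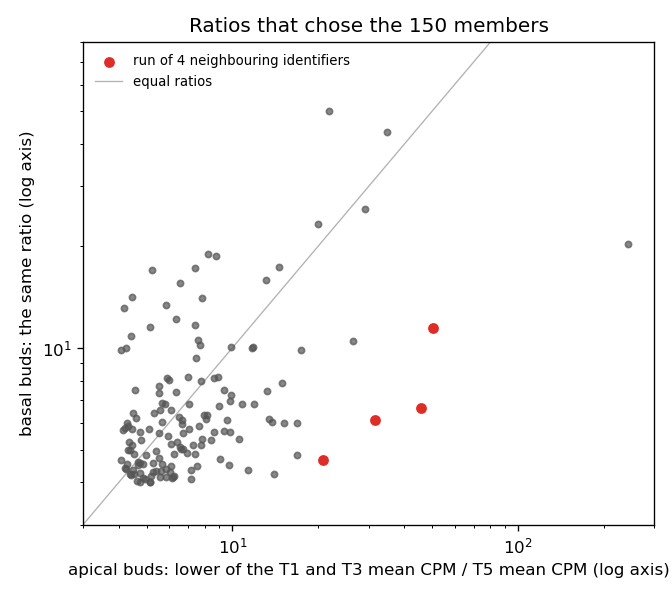
Ratio of the lower of the T1 and T3 mean CPM to the T5 mean CPM of each of the 150 genes, apical buds on the horizontal and basal buds on the vertical axis (both log axes). Most points lie between 4 and 10 on both axes, and the 4 red points, a run of neighbouring identifiers, lie below the line of equal ratios.

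The genes covered a wide range of levels. Their group means at T1 ran from 2.03 to 1850 CPM in apical buds (median 26.7) and from 2.32 to 2324 CPM in basal buds (median 16.4). At T5 the median of the group means was 2.80 CPM in apical and 1.99 CPM in basal buds. A few genes carried most of the counts, since the 10 highest made up between 53.7% and 64.3% of the counts of all 150 in the 6 groups. PRUPE_1G128700 had the highest mean in each group except T1 apical, where PRUPE_1G475800 averaged 1850 CPM against 1843 CPM. PRUPE_1G128700 alone made up 9.26% of these counts in T1 apical and 22.9% in T3 basal buds. It measured 1985, 1567 and 1979 CPM in T1 apical, 2476, 2256 and 2186 in T3 apical, and 512, 309 and 458 CPM in T5 apical buds. In basal buds it measured 2337, 2204 and 2432 CPM at T1, 3634, 3171 and 3440 at T3 and 454, 536 and 405 at T5. Its T3 libraries were thus above its T1 libraries in both positions, and its level at T5 was still above 300 CPM in all 6 libraries. As an abundant gene it was singled out after its values were seen.

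Replicates of the 150 genes spread more at T5 than at the earlier times. The median coefficient of variation over the genes was 8.22%, 21.1% and 27.7% at T1, T3 and T5 in apical buds, and 11.95%, 10.05% and 24.4% in basal buds. Over all genes passing the minimum it was 4.95%, 17.8% and 11.5% in apical and 6.48%, 5.67% and 7.92% in basal buds. The T5 values rest on fewer counts, but what widened their spread was not tested. Among the 150, single libraries were also often the lowest or highest of their group, which was not counted for all genes. T5 apical replicate 2 was the lowest of its 3 replicates in 100 of the 150 genes, and T5 basal replicate 3 in 96. T5 basal replicate 1 was the highest of its group in 91 genes, while T3 apical replicate 1 was the highest in 68 and the lowest in 57.

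PRUPE_7G190700 had the largest smaller ratio of both positions, although other genes fell more in 1 position. It measured 60.9, 64.2 and 58.1 CPM in the T1 apical libraries, 60.6, 56.3 and 45.9 in T3 apical and 1.03, 0.968 and 2.67 in T5 apical. In basal buds it measured 13.2, 9.94 and 11.7 CPM at T1, 6.08, 6.17 and 6.83 at T3 and 0.190, 0.116 and 0.131 at T5. The apical libraries were above the basal ones at each of the 3 times, and the ratios to T5 were 34.9 in apical and 43.6 in basal buds. Its T5 basal libraries held only 9, 3 and 4 counts. PRUPE_6G286900 followed with ratios of 29.2 and 25.7. Its means were 25.1 and 17.9 CPM in apical and basal buds at T1 and 0.740 and 0.583 CPM at T5, where the libraries of the positions overlapped. PRUPE_1G178400 fell 21.8-fold in apical and 50.3-fold in basal buds, from at least 41.3 CPM in each T1 and T3 library to at most 3.95 CPM in each T5 library.

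PRUPE_1G096800 fell most of all in apical buds. It measured 42.4, 36.5 and 61.7 CPM at T1, 50.6, 38.7 and 56.3 at T3 and 0.120, 0.314 and 0.146 at T5. In basal buds it stood at 9.17, 16.9 and 19.4 CPM at T1, at 2.86, 5.07 and 4.29 at T3 and at 0.190, 0.116 and 0.295 at T5. The ratio to T5 was 242 in apical and 20.3 in basal buds, and the basal level was already lower at T3 than at T1 with no overlap of the libraries. These ratios rest on few T5 counts, 5, 12 and 4 in the apical and 9, 3 and 9 in the basal libraries. PRUPE_5G193400, with ratios of 20.01 and 23.2, was the gene with a T5 library at 0 counts, in basal buds, where its other T5 libraries measured 0.211 and 0.164 CPM.

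**Figure D3:**
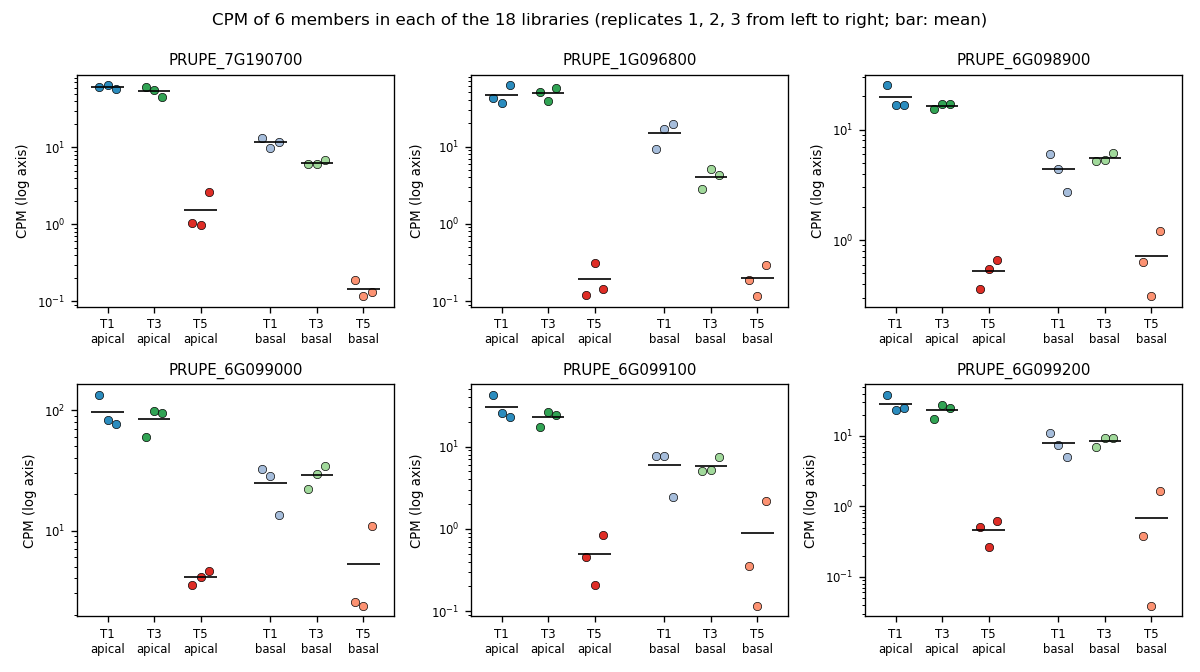
CPM (log axis) of PRUPE_7G190700, PRUPE_1G096800 and the 4 genes of the run PRUPE_6G098900 to PRUPE_6G099200 in each library, with the mean of each group as a bar. In PRUPE_1G096800 the T3 basal mean of 4.07 CPM lies between the T1 basal mean of 15.2 and the T5 basal mean of 0.201.

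Between T1 and T3, 4 of the 150 genes were called in basal buds and none in apical buds. The rule took the lower of the T1 and T3 means, which disfavours genes that differ much between these times, so that the number of such calls is not independent of the choice. The direction between T1 and T3 was not used. Calls were made with edgeR's quasi-likelihood test on the raw counts. They required a false discovery rate below 0.01 over all genes tested and 2-fold or more between the groups. These are the limits of the study, which used DESeq2 instead of edgeR. In basal buds DESeq2 called 3 of the 150 (2%) between T1 and T3, and 1.31% of all genes tested, against 0.927% with edgeR. In basal buds, 3 genes were higher at T1, where 0.43% of the 19304 genes tested were called, and 1 was higher at T3, where 0.497% were. The 3 were PRUPE_1G096800 (log2 fold change 1.84, SE 0.289, adjusted p = 0.00323), PRUPE_1G251200 (1.08, SE 0.167, adjusted p = 0.00171) and PRUPE_4G151600 (1.00, SE 0.183, adjusted p = 0.0042). PRUPE_1G251200 measured 20.7, 16.5 and 22.0 CPM in the T1 basal and 9.68, 9.24 and 8.05 CPM in the T3 basal libraries, which do not overlap. The gene higher at T3 was PRUPE_4G024400, with 3.28, 1.75 and 3.29 CPM at T1 and 5.48, 4.81 and 5.61 CPM at T3 (log2 fold change -1.002, SE 0.206, adjusted p = 0.00668). The count of 4 fell to 2 without T1 basal replicate 1 or replicate 2 and to 1 without T3 basal replicate 1 or replicate 3. Over all genes tested the 179 calls fell to between 125 and 135 in the same fits. The call of PRUPE_4G024400 was lost without any one of the 6 libraries, and that of PRUPE_1G096800 without T1 basal replicate 2 or 3 or T3 basal replicate 1 or 3.

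In apical buds no gene of the 150 was called between T1 and T3, against 0 and 0.056% of the 19636 genes tested that were called higher at T1 and at T3. An unadjusted p under 0.05 was found for 24 of the 150 (16%) and for 19% of all genes tested, and DESeq2 called 1 of the 150 (0.667%) and 0.917% of all. In each position most of the fitted differences were above 0, though agreement between the positions was not counted gene by gene. The fold change was above 0, that is higher at T1, for 95 of the 150 in basal buds (63.3%, against 50.2% of the genes tested) and for 98 in apical buds (65.3%, against 50.7%). The median log2 fold change was 0.10 in basal and 0.12 in apical buds, against 0.00 and 0.01 over all genes tested. With no scaling beyond library size the median of all genes between T1 and T3 in apical buds moved to 0.10, and that of the 150 to 0.22. Every T1 library was above every T3 library in 57 genes in basal buds, where 25% of the genes tested were, and in 57 in apical buds, where 27.9% were. The reverse order was found in 10 genes in basal buds (14.5% of those tested) and in 3 in apical buds (10.5%). Without T3 apical replicate 1 the apical count of calls stayed at 0, the fold change was above 0 in 110 genes (73.3%, against 50.6%) and the median was 0.18. The apical libraries of T1 were then all above those of T3 in 89 genes (36.4% of the genes tested) and all below in 5 (14%).

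The change from T1 to T3 was also compared between the positions. None of the 150 was called, against 0.0658% of the 19754 genes tested, while an unadjusted p under 0.05 was found for 21 (14%) and for 18% of all genes tested. DESeq2 called 1 of the 150 (0.667%) and 0.704% of all. The fitted difference was above 0 in 85 genes (56.7%, against 52.9% of the genes tested). The gene nearest to a call was PRUPE_1G096800, whose T1 to T3 difference was lower by 1.97 on the log2 scale in apical than in basal buds (log2 difference -1.97, SE 0.383, adjusted p = 0.0299). Without T1 basal replicate 1, 1 gene was called, and without T3 apical replicate 1 none was, with 84 differences above 0. Over all genes tested 19 and 24 were called, with 52.8% of the differences above 0 in the latter fit.

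More of the 150 genes were called between the bud positions than between T1 and T3, as was the case for all genes tested. At T1, 31 were called higher in apical buds, where 3.49% of the 19754 genes tested were, and 1 was called higher in basal buds, where 1.41% were. At T3, 37 were higher in apical (5.75% of the genes tested) and 2 higher in basal buds (3.38%). At T5, 8 were higher in apical (0.795%) and 1 higher in basal buds (0.364%). The called apical differences at T1 ran from 1.00 to 2.69 on the log2 scale, those at T3 from 1.03 to 3.62 and those at T5 from 1.01 to 3.22. Without T3 apical replicate 1 the counts of both directions were 33 at T1, 34 at T3 and 16 at T5. The shares of all genes tested were then 5.5%, 6.44% and 1.71%, against 4.91%, 9.13% and 1.16% with it. At T1 the count of 32 fell to between 15 and 20 without T1 apical replicate 1 (18), 2 (18) or 3 (19) or T1 basal replicate 2 (20) or 3 (15). Over all genes tested the 969 calls at T1 fell to between 582 and 744 in the same fits. At T5 the count of 9 became 15 without T5 apical replicate 1 and 5 without T5 apical replicate 3. Over all genes tested the 229 calls at T5 became 486 and 110. Because apical and basal buds were cut from the same shoots, the replicate number was also used as a block, which left 5 calls at T5 in place of 9. The 6 libraries of T5 fitted alone gave 2 calls and DESeq2 gave 20. Over all genes tested the block left 150 calls at T5, the 6 libraries alone gave 52 and DESeq2 gave 373.

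The whole of the 150 leaned to the apical side. The levels of both positions chose the 150, and the genes tested include some below the level minimum that the 150 had to pass. The fitted difference was above 0 in 125 genes at T1 (83.3%, against 52.4% of the genes tested), in 115 at T3 (76.7%, against 50.7%) and in 100 at T5 (66.7%, against 51.1%). The median difference was 0.57 at T1, 0.49 at T3 and 0.26 at T5 on the log2 scale, against 0.02, 0.01 and 0.01 over all genes tested. In 101 genes every apical library was above every basal library at T1, as in 28.1% of the genes tested, in 75 at T3 (23.9%) and in 40 at T5 (19.4%). The opposite order was found in 13 at T1 (28.3%), in 17 at T3 (30.1%) and in 4 at T5 (10.1%). Without T3 apical replicate 1 the difference was above 0 in 125, 112 and 98 genes at T1, T3 and T5, against 52.4%, 50.1% and 51% of the genes tested. At T3 every apical library was then above every basal one in 87 genes (29.5% of the genes tested) and below in 20 (36%).

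**Figure D4:**
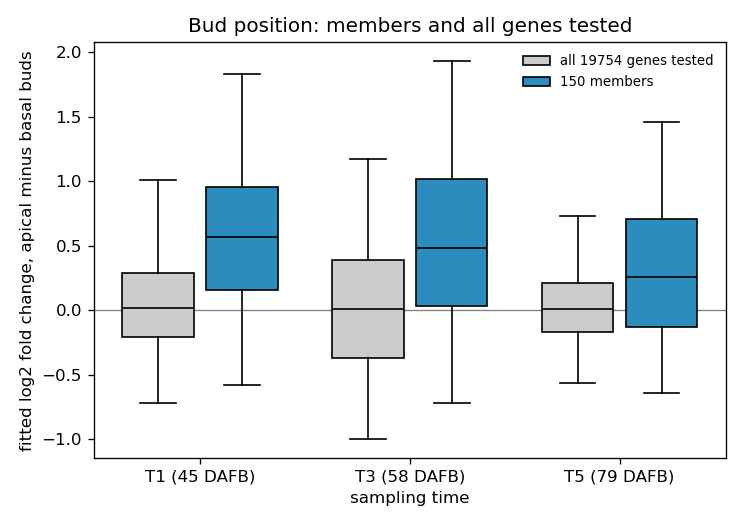
Fitted log2 fold change of apical against basal buds at T1, T3 and T5, for the 150 genes (blue) and for all 19754 genes tested (grey). Boxes show the middle 50% with the median and whiskers the range from 5% to 95% of the genes; the medians of the 150 are 0.57, 0.49 and 0.26, those of all genes 0.02, 0.01 and 0.01.

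This lean to the apical side was not confined to the 150. Of the next 150 genes in the order of the smaller ratio, 85.3% had a positive difference at T1, and of the 700 genes after those, 83.4% did. Calls in favour of apical buds at T1 were made for 28% of the 50 genes with the largest smaller ratios, for 20% and 14% of the following groups of 50, for 17.3% of the next 150 and for 10.6% of the 700 after them. At T3 the same shares were 28%, 28%, 18%, 22.7% and 16.1%. These shares did not fall steadily along the order, and no test of a trend was made.

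The calls at T1 and T3 were also set side by side, with the share among the 19211 genes tested in all comparisons. Higher levels in apical buds were called at T1 or T3 in 46 of the 150 (30.7%, against 6.49% of all genes) and at both times in 22 (14.7%, against 2.26%). Of these 22, 5 were also called at T5 (3.33%, against 0.141%) and 17 were not (11.3%, against 2.1%), which by itself does not show that their differences changed. The difference was positive at all 3 times in 81 genes (54%, against 25.5%), positive at T1 and T3 but negative at T5 in 29 (19.3%, against 13.2%), and negative at T1 and T3 in 20 (13.3%, against 36.3%). No gene passed the threshold towards apical buds at T1 or T3 and towards basal buds at T5. In 99 of the 150 no call was made in any of the 6 comparisons (66%, against 88.1%). Without T3 apical replicate 1 these counts were 41 and 23, 7 and 16, 78, 29 and 20, and 100 in the same order. The shares of the 19231 genes then tested were 5.75% and 2.29%, 0.213% and 2.03%, 25.8%, 14.4% and 38.4%, and 89.8%.

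**Figure D5:**
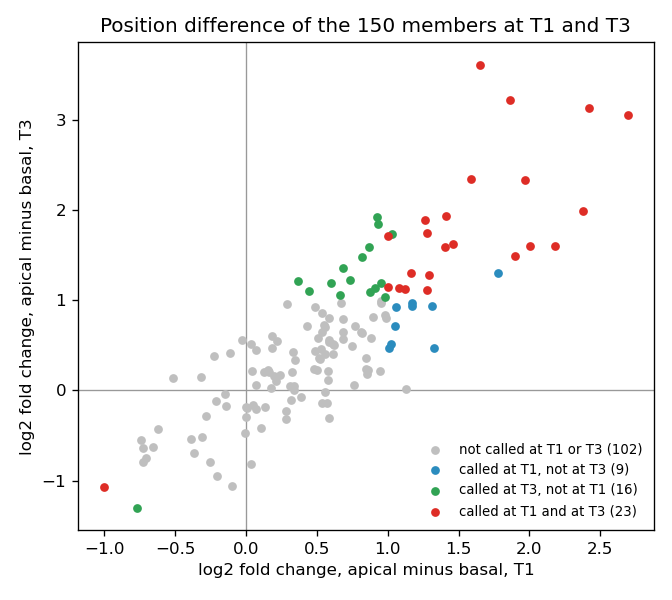
Log2 fold change of apical against basal buds at T1 (horizontal) and T3 (vertical) for the 150 genes, coloured by the calls at a false discovery rate below 0.01 and 2-fold. The 23 genes called at both times lie in the upper right with 1 exception in the lower left, 9 were called at T1 and not at T3, 16 at T3 and not at T1, and 102 at neither.

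Among the genes higher in apical buds, PRUPE_7G190700, PRUPE_1G096800 and PRUPE_3G004100 had the lowest adjusted p at 1 or more of the times. For PRUPE_7G190700 the difference was 2.42 at T1 (SE 0.225, adjusted p = 7e-06), 3.14 at T3 (SE 0.234, adjusted p = 7.63e-07) and 3.22 at T5 (SE 0.449, adjusted p = 0.000713). This gene fell at T5 in both positions and kept its order between them. For PRUPE_1G096800 the difference was 1.65 at T1 (SE 0.267, adjusted p = 0.000413) and 3.62 at T3 (SE 0.295, adjusted p = 1.19e-06), and at T5 it was -0.09 (SE 0.737, adjusted p = 0.961). Its T5 libraries of both positions lay between 0.116 and 0.314 CPM and overlapped.

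PRUPE_3G004100 was expressed at a higher level and varied little between replicates. It measured 392, 394 and 431 CPM in T1 apical, 398, 410 and 371 in T3 apical and 45.5, 48.8 and 51.4 in T5 apical buds. In basal buds it measured 164, 145 and 141 CPM at T1, 133, 117 and 145 at T3 and 29.2, 18.6 and 16.2 at T5. The libraries of the positions did not overlap at any time, and the difference was 1.46 at T1 (SE 0.152, adjusted p = 1.36e-05), 1.62 at T3 (SE 0.153, adjusted p = 3.08e-06) and 1.15 at T5 (SE 0.154, adjusted p = 0.000576). For PRUPE_1G251200 the difference was 0.92 at T1 (SE 0.189, adjusted p = 0.00239), below the 2-fold limit, and it was called at T3 (1.92, SE 0.197, adjusted p = 5.66e-06) and at T5 (1.53, SE 0.229, adjusted p = 0.00108). The T5 calls of PRUPE_7G190700, PRUPE_3G004100 and PRUPE_1G251200 were lost when the 6 libraries of T5 were fitted alone, as was the T1 call of PRUPE_1G096800 with the 6 libraries of T1.

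Only 3 genes of the 150 were called higher in basal buds at any time. PRUPE_6G340500 measured 8.22, 9.21 and 8.93 CPM in T1 apical and 19.0, 16.1 and 18.8 CPM in T1 basal buds. At T3 it measured 9.59, 7.63 and 11.3 CPM in apical and 21.2, 21.9 and 19.2 CPM in basal buds. It was lower in apical buds at T1 (log2 fold change -1.004, SE 0.157, adjusted p = 0.00032) and at T3 (-1.07, SE 0.156, adjusted p = 0.000102), and the call was lost without T1 apical replicate 1 at T1 and without T3 apical replicate 2 at T3. PRUPE_3G035700 was called at T3 alone (-1.30, SE 0.238, adjusted p = 0.000602), with 18.9, 24.1 and 23.8 CPM in apical and 58.5, 56.4 and 55.3 CPM in basal buds. PRUPE_5G129900 was called at T5 alone (-1.38, SE 0.196, adjusted p = 0.00083). At T1 its means were 168 and 172 CPM and the libraries overlapped. At T3 the apical libraries, with 100.7, 124.7 and 123.8 CPM, all lay below the basal ones, with 164.5, 132.4 and 201.2 CPM (-0.47, SE 0.181, adjusted p = 0.0436). At T5 it measured 6.35, 5.84 and 7.93 CPM in T5 apical against 15.1, 16.9 and 18.5 CPM in T5 basal buds. Whether its difference at T5 differed from that at T1 was not tested.

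Some of the 150 genes lay next to each other. In 10 genes the nearest other of the 150 had the next locus number of the same chromosome, and 19 genes, in 7 groups, lay within 5 locus numbers of another. Among the next 150 genes in the order of the smaller ratio these numbers were 4 and 10. Chromosome 1 held 41 of the 150 (27.3%), against 22.9% of the genes passing the minimum, chromosome 6 held 23 (15.3%, against 13.8%) and chromosome 2 held 10 (6.67%, against 11.8%). The files do not state how reads of near-identical copies were counted, so that neighbours of one family could have shared or lost reads.

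The longest run was PRUPE_6G098900, PRUPE_6G099000, PRUPE_6G099100 and PRUPE_6G099200. Their T1 means were 19.5, 97.6, 30.4 and 28.7 CPM in apical and 4.39, 24.7, 5.92 and 7.86 CPM in basal buds. At T5 the means were 0.522, 4.08, 0.502 and 0.462 CPM in apical and 0.719, 5.29, 0.890 and 0.686 CPM in basal buds. The ratio to T5 was 31.6, 20.8, 45.6 and 50.5 in apical and 6.11, 4.67, 6.63 and 11.45 in basal buds. By these means each of the 4 fell more in apical buds. The basal ratios depend on T5 basal replicate 3 and are not given without it. PRUPE_6G099200, for example, measured 0.381, 0.0388 and 1.64 CPM in the T5 basal libraries. All 4 were called higher in apical buds at T1, with log2 differences of 2.18, 2.01, 2.38 and 1.90, and at T3, with 1.61, 1.61, 1.99 and 1.49 (adjusted p from 9.55e-05 to 0.00882). At T5 the differences were -0.55, -0.43, -0.92 and -0.64, with adjusted p of 0.504, 0.662, 0.539 and 0.641.

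The 4 genes also varied together between replicates. PRUPE_6G099100, for example, measured 42.6, 25.9 and 22.8 CPM in T1 apical buds and 7.63, 7.65 and 2.48 in T1 basal buds, and at T5 0.455, 0.209 and 0.840 CPM in apical and 0.360, 0.116 and 2.20 CPM in basal buds. T1 apical replicate 1 was the highest, T1 basal replicate 3 the lowest and T5 basal replicate 3 the highest of its group in all 4. The calls of PRUPE_6G098900 were kept without any one library. Those of the other 3 at T1 were lost without T1 apical replicate 1 or T1 basal replicate 3, and at T3 without T3 apical replicate 3, T3 basal replicate 1, 2 or 3. DESeq2 did not call PRUPE_6G099200 at T1, nor PRUPE_6G099100 and PRUPE_6G099200 at T3.

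A looser group on chromosome 1 held PRUPE_1G475100, PRUPE_1G475300, PRUPE_1G475400 and PRUPE_1G475800, with ratios to T5 of 5.53, 11.7, 4.79 and 8.43 in apical and 7.71, 9.997, 5.33 and 5.34 in basal buds. Of the 4 identifiers between them, none reached 2 CPM in any group and 2 had no count in any library. The most abundant of the group, PRUPE_1G475800, measured 1865, 1834 and 1851 CPM in T1 apical and 953, 986 and 782 CPM in T1 basal buds, a log2 difference of 1.05 (SE 0.192, adjusted p = 0.00105) that was lost as a call without T1 basal replicate 3. In T3 apical buds it measured 888, 1544 and 1342 CPM, with the lowest value in T3 apical replicate 1. At T5 it measured 168, 124 and 155 CPM in apical and 188, 157 and 100.3 CPM in basal buds, which overlapped. The pair PRUPE_1G128600 and PRUPE_1G128700 was abundant too. PRUPE_1G128600 averaged 590.0 CPM in apical and 391 CPM in basal buds at T1 and 61.7 and 64.0 CPM at T5, and the position difference of neither gene reached the 2-fold limit at any time.

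None of the 15 genes that the study names by identifier in its main text and primer list was among the 150, although 14 passed the level minimum. The study's full lists of differentially expressed genes were not compared with the 150. The nearest in the order were PpSPL9.2 (PRUPE_7G074200, rank 251) and PpSPL9.1 (PRUPE_6G256300, rank 256), homologues of an Arabidopsis factor that promotes the change from juvenile to adult growth and flowering. Their ratios to T5 were 3.72 and 3.22 in apical and 3.25 and 4.02 in basal buds. The mitotic cyclins PpCYCB1.2 (rank 703) and PpCYCB1.4 (rank 1026) had ratios of 5.54 and 4.73 in apical but 2.31 and 2.02 in basal buds, which set their rank. PpRSI-1, PpCEN and PpTFL1 followed at ranks 1332, 2483 and 3659. In all, 7 of the 15 had a ratio above 1 in both positions.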

How the data were processed

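Reads of 18 libraries of untreated buds, stranded mRNA libraries sequenced on an Illumina NextSeq 500, were checked with FastQC, aligned with HISAT2 to peach genome v2.0.a1 and counted on public gene models with HTSeq, per the study's methods. Versions, counting mode and strand setting are not given in the sources used here. The deposited values are raw counts per gene, which the authors did not normalize, with replicates kept apart. All 18 columns were mapped by their names, and the total counts limit the precision, as do 3 replicates per group.

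Levels are CPM of the column sum, as in the rule that chose the genes, and fold changes are fitted. The quasi-likelihood test of edgeR 4.0.16 (R 4.3.3) was run on the raw counts after TMM scaling and the filter on low counts, with robust dispersions and p-values adjusted by Benjamini-Hochberg over all genes tested. T1 against T3 was fitted on the 9 libraries of a position, the position contrasts and their difference on all 18. SE is the fold change divided by the square root of F. The tests were tried on simulated counts. Positive values are higher at T1 or in apical buds. The members, the lists and the limits were chosen with earlier results of these data known. Genes were named by rule: the 5 largest smaller ratios, up to 2 non-overlapping called genes of lowest adjusted p per direction and contrast, both sides of the threshold, runs of 3 or more adjacent identifiers, and the study's genes. PRUPE_4G151600, PRUPE_1G128600, PRUPE_1G128700 and the PRUPE_1G475100 to PRUPE_1G475800 group were named after their values were seen. The grouping of genes by function was not made, as no identifier matched.

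Alternatives were DESeq2 1.42.0, other scaling, no filter, other sets of libraries, other limits, a replicate block and each library left out. Equal replicate numbers pair the positions because the buds were cut from the same shoots, if the names follow the shoots. Deviations of same-numbered libraries of the positions correlated with a median of 0.0325 over 9 pairs, those of other-numbered ones with -0.016 over 18 pairs. Plots were made in Python 3.11.15 with matplotlib 3.10.9.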

Additional observations from a re-analysis of the deposited data

How the results depend on the processing

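The choice of the genes kept 126 of the 150 with a level minimum of 1 CPM, 111 with 5 CPM, 127 with group medians, 147 with TMM library sizes and at least 135 with each library left out in turn. The count of genes near another rose from 10 with the next locus number to 19 within 5 locus numbers.

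With a false discovery rate below 0.05 and no limit on the fold change, the counts of called genes were 35 and 1 between T1 and T3 in basal and apical buds, 75, 82 and 33 between positions at T1, T3 and T5, and 1 for the difference between positions. The shares of all genes tested were 16.8% and 0.535%, 22.8%, 46.5% and 9.34%, and 0.734% in the same order, so that the 82 genes at T3 (54.7%) stood near the 46.5% of all genes. Tested against a 2-fold change, the counts of the 150 were 0 in basal buds between T1 and T3, and 2, 9 and 0 between positions at T1, T3 and T5. Over all genes tested they were 0, and 117, 186 and 2. DESeq2 called 1 between T1 and T3 in apical buds, 20 at T5 between positions and 1 for the difference between positions. The shares of all genes tested were 0.917%, 1.89% and 0.704%. With all 18 libraries in the fit, 2 were called between T1 and T3 in basal and 2 in apical buds, and with 6 libraries alone 2 at T5. Over all genes tested the calls were 137, 116 and 52. Library-size scaling gave a median of 0.221 between T1 and T3 in apical buds. With each library left out, the counts ranged from 1 to 3 and from 0 to 0 between T1 and T3 in basal and apical buds, from 15 to 33, 34 to 41 and 5 to 16 between positions at T1, T3 and T5, and from 0 to 1 for the difference, where leaving out T3 apical replicate 1 at T1 and T5 was added after seeing the data. Over all genes tested the counts ranged from 122 to 140 and 0 to 20 between T1 and T3 in basal and apical buds. Between positions they ranged from 582 to 1094, 1280 to 2347 and 95 to 486, and for the difference from 1 to 29. The medians of the 150 then ranged from 0.0572 to 0.168 and 0.105 to 0.178 between T1 and T3, from 0.462 to 0.581, 0.441 to 0.54 and 0.166 to 0.386 between positions, and from -0.0159 to 0.0842 for the difference. The causes were not tested.

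The replicate block left 29, 38 and 5 calls between positions at T1, T3 and T5, against 32, 39 and 9. Over all genes tested it left 849, 1655 and 150, against 969, 1803 and 229. Between T1 and T3, 0 of 6 same-numbered pairs correlated above 0.1, which cannot show whether the numbers pair the samples. Between positions 2 of 9 same-numbered and 2 of 18 other-numbered pairs did. Between T1 and T3 the block left 3 and 0 calls in basal and apical buds, against 145 and 0 over all genes tested. Of 496 alternatives to 32 called values of named genes, 404 kept the call, 92 lost it and 0 reversed it, and 6 values kept it under every alternative. The alternative with a false discovery rate below 0.05 only loosened the limits on the main fit. It keeps each call by design, so that the 404 include calls that could not be lost. Low counts at T5 and 3 replicates per group limit what could be detected there.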
